A study of Macaca mulatta with 12 samples.

Results

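The clonotypes described here had a long CDR3, the hypervariable loop of the T cell receptor beta chain (TRB) that is made where the V, D and J segments are joined. A clonotype was 1 CDR3 nucleotide sequence with its count in 1 library. It was taken as a member when its CDR3 was read in frame without a stop codon (a productive clonotype) and was 54 nt or longer, which is 18 residues or more. The 8 post-infusion libraries held 9260 such clonotypes (8760 distinct sequences) among 200807 productive clonotypes. They were compared with the 183480 productive clonotypes of 36 to 51 nt (12 to 17 residues), which formed the bulk of every repertoire.

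The libraries came from blood mononuclear cells of rhesus macaques. Amazo, Nebula and Rocket, the 3 named recipients, had received apoptotic donor leukocytes (ADLs), donor white cells treated with the cross-linker ethylcarbodiimide before infusion, on day -7 and day 1 per the series text. A figure legend of the study places the second infusion on day 0 instead. Per the study's methods they were nondiabetic and nontransplanted, were matched with the donor for 1 DRB allele of MHC class II but not for class I, and all received an anti-CD40 antibody, rapamycin, tocilizumab and etanercept, so the effect of the infusions cannot be told apart from that of the drugs. Libraries carried the labels day -5 and day -4 for each name, day 0 for Nebula and day +3 for Amazo. Another 4 libraries, labelled baseline, carried animal codes instead of these names. The labels do not say whether any of them came from the same animals.

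The joining of TRB segments is imprecise: bases are trimmed from the segment ends and nontemplated bases (N bases) are added by terminal deoxynucleotidyl transferase before the ends are ligated. CDR3 length is set by how many V, D and J bases survive trimming and how many N bases are added. The middle of the loop contacts the peptide held by the MHC molecule. TRBD2 lies downstream of the TRBJ1 cluster, so it ordinarily joins TRBJ2 genes, while TRBD1 can join either cluster.

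The sequences below are the members that the later values refer to: the 2 most abundant members of each named recipient's day -5 and day -4 libraries, the longest member with 10 counts or more of each name, and the 3 members found under both the Nebula and the Rocket names with the most counts. Capitals mark the bases between the last V base and the first J base, as aligned by the authors, and lower case marks bases of the V and J genes.
TRBV4-3 TRBD2 TRBJ2-1: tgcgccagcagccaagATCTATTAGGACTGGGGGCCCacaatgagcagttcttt
TRBV12-2 TRBD1 TRBJ2-5: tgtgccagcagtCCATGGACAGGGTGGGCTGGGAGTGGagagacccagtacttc
TRBV3-4 TRBD2 TRBJ2-5: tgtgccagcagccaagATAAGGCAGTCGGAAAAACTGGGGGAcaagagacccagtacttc
TRBV4-2 TRBD2 TRBJ2-4: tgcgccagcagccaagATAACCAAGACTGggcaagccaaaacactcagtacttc
TRBV12-2 TRBD1 TRBJ1-5: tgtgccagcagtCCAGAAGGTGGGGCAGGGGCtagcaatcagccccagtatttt
TRBV5-1 TRBD2 TRBJ2-7: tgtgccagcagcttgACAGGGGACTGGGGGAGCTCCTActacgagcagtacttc
TRBV14 TRBD1 TRBJ1-2: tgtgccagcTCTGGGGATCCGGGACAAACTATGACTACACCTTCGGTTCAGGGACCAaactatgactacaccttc
TRBV24-1 TRBD2 TRBJ2-5: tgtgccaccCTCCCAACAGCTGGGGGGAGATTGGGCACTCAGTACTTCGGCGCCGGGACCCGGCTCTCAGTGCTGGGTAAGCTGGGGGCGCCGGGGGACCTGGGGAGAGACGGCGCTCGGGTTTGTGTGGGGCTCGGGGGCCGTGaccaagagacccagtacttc
TRBV10-3 TRBD1 TRBJ2-4: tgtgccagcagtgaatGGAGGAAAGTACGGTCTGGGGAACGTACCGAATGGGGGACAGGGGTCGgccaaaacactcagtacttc
TRBV3-3 TRBD1 TRBJ2-6: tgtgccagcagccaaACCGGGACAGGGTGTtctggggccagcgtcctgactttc
TRBV23-1 TRBD2 TRBJ2-2: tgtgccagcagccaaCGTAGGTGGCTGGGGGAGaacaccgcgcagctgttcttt
In each line the stretch in capitals lay between the aligned V and J bases, with the aligned D gene inside it. In TRBV14 TRBD1 TRBJ1-2 and TRBV24-1 TRBD2 TRBJ2-5 the capitals also held a J-like stretch, described below, so they are not all D and N bases. The stretch in capitals ran from 13 bases in TRBV4-2 TRBD2 TRBJ2-4, where 25 bases aligned to the J gene, to 136 bases in TRBV24-1 TRBD2 TRBJ2-5.

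In bulk RNA, fewer cells of a clone and less RNA per cell cannot be told apart. Total counts were 42695 to 556954 in the post-infusion libraries and 63 to 74 at baseline. Nebula day -4 had the fewest counts of the 8. The names did not always follow the repertoires. Among long clonotypes, the Morisita-Horn overlap, which runs from 0 to 1, was 0.683 to 0.908 in 9 pairs of libraries that shared a repertoire, namely the pairs within Nebula and those among the Rocket, Amazo day -5 and Amazo day +3 libraries. In the other 19 pairs, which included Amazo day -4 against the other Amazo libraries, it was at most 0.00221 and at most 8 long clonotypes were shared. Results were therefore also computed with these 3 sets in place of the 3 names. Nothing in the labels says that the libraries of 1 name were made from separate cultures or draws beyond their days, and counts of PCR products carry counting error only in the intervals given here.

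Long clonotypes made up a similar share of each post-infusion repertoire. Their share of productive clonotypes was 4.61%, 4.95% and 4.81% in Amazo at day -5, day -4 and day +3. It was 4.78%, 4.06% and 4.58% in Nebula at day -5, day -4 and day 0, and 5.03% and 4.22% in Rocket at day -5 and day -4. The lowest share stood in the shallowest library and the highest in the deepest. The mean of the names went from 4.81% ± 0.214 (day -5) to 4.41% ± 0.473 (day -4; SD, 3 libraries per day), a change of -0.398 points that was lower in 2 of 3 names (exact sign-flip permutation test, two-sided, p = 0.5, adjusted p = 0.5 over 4 comparisons, and the smallest p possible with 3 pairs is 0.25). The difference between the days was smaller than the spread between the names (SD of the paired differences 0.640 points). The Amazo day -4 library shared almost no clonotypes with Amazo day -5, so the repertoires do not bear that pair out. Without Amazo the change was -0.767 points (exact sign-flip permutation test, p = 0.5), and without Nebula or Rocket it was -0.235 and -0.193 points (p = 1 for each in the same exact test).

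Weighed by counts, long clonotypes took less of the repertoire. Their share of productive counts was 2.51%, 3.24% and 2.36% in Amazo, 4.22%, 4.10% and 4.07% in Nebula and 2.02% and 2.34% in Rocket, in the same order of days. The 3 Nebula libraries stood above all others. Between day -5 and day -4 the share of counts went from 2.92% ± 1.16 to 3.22% ± 0.881 (SD, n = 3), a difference of 0.308 points (exact sign-flip permutation test, p = 0.5, adjusted p = 0.5). Without Amazo it was 0.0977 points (p = 1 in the same exact test) and without Nebula 0.523 points.

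**Figure D1:**
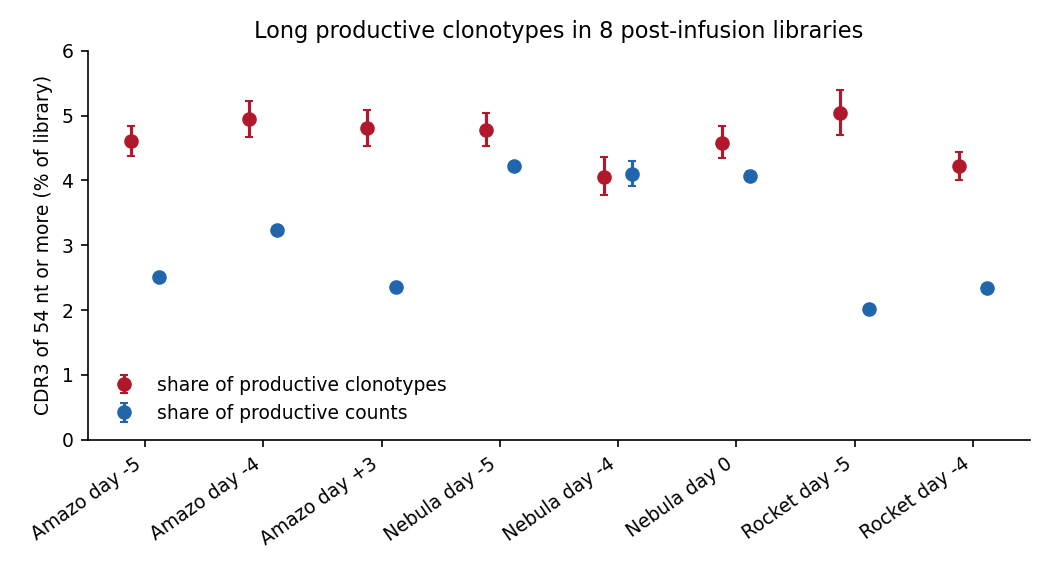
Share of each post-infusion library (y axis, %) held by clonotypes of 54 nt or more, as a share of productive clonotypes (red) and of productive counts (blue). Bars are 95% Wilson intervals and cover counting error only. The clonotype shares lie between 4.06% and 5.03%, while the count shares lie between 2.02% and 4.22% and are highest in Nebula.

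At baseline, 2 of 156 productive clonotypes were long (1.28%, 95% Wilson interval 0.352% to 4.55%). The baseline libraries 1 and 3 held 1 long clonotype each, and libraries 2 and 4 held none of 37 and 29, where a count of 0 allows a share of up to 8.11% and 10.3% respectively, taken as 3 counts of the total (95% Wilson upper limits 9.41% and 11.7%). The mean share was 1.11% ± 1.29 (SD, n = 4), which was 3.69 points below day -5 and 3.29 points below day -4. The exact two-sided permutation test gave p = 0.057 in both cases (adjusted p = 0.114), the smallest p that 4 against 3 libraries allow. The size depended on the measure. With each clonotype weighted by its count the differences were 1.87 points (exact permutation p = 0.171) and 2.18 points (p = 0.114), and for CDR3s of 57 nt or more they were 1.23 and 1.11 points (p = 0.229 for each in the same exact test). Depth and day differed between these groups, the labels do not say whether the animals did, and these cannot be told apart.

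Most members were only just long. CDR3s of 54 nt were 62.8% of them (5819 clonotypes) and those of 54 to 60 nt were 95.7%, leaving 397 of 63 nt or more and 21 of 75 nt or more. At the lengths on each side of the minimum, clonotypes of 51 nt were 5.65% to 6.58% of a library's productive clonotypes and those of 54 nt were 2.44% to 3.30%.

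The extra length lay mostly in the junction. Among clonotypes with an aligned D gene, long CDR3s averaged 55.8 nt and the comparison class 43.9 nt, and the 11.96 nt between them are a sum of segment differences that the length rule fixes. Bases between V and D averaged 6.63 against 3.29, and bases between D and J 6.18 against 3.29, so these 2 stretches together held 52.05% of the difference. The J gene gave 19.9 against 17.1 bases (23.9% of the difference), the D gene 9.30 against 7.48 (15.2%) and the V gene 13.8 against 12.7 (8.90%). In each of the 8 libraries the bases outside the aligned genes were 5.82 to 6.63 more per long clonotype.

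The V, D and J parts levelled off within the long class, while the stretches between them did not. From 54 nt to 63 nt or more, the J part went from 19.9 to 20.1 bases and the V part from 13.8 to 13.7. Over the same lengths the stretch between V and D went from 5.76 to 11.9 bases and that between D and J from 5.57 to 10.6. The alignment reached or passed the annotated start of the J gene in 33.8% ± 1.34 of long clonotypes and 13.96% ± 0.237 of the others, and the annotated end of the V gene in 34.7% ± 1.35 against 23.2% ± 0.628 (SD over 3 names). Both were higher among long clonotypes in 8 of 8 libraries.

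**Figure D2:**
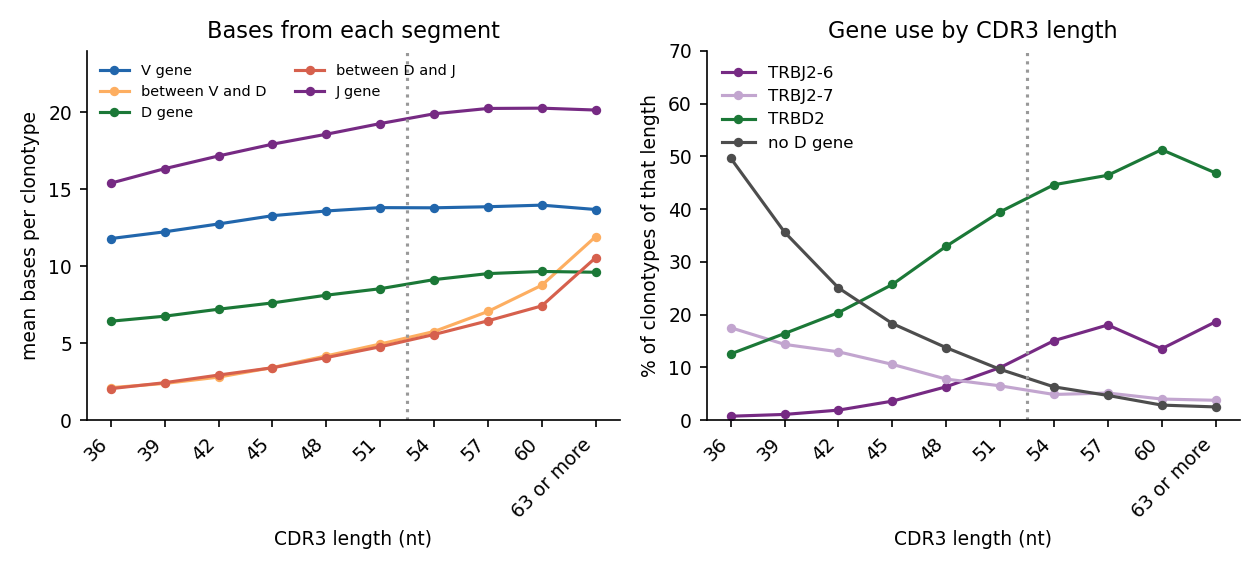
Pooled productive clonotypes of the 8 post-infusion libraries by CDR3 length (x axis, nt), with the 54 nt minimum marked by the dotted line. Left, mean bases from each segment (clonotypes with a D gene for the D and the 2 stretches beside it), where the V, D and J lines flatten above 54 nt and the lines between the segments rise to 11.9 and 10.6 bases. Right, share of clonotypes of each length (%) with the named gene. TRBJ2-6 goes from 0.759% at 36 nt to 9.97% at 51 nt and 15.1% at 54 nt. Clonotypes with no D gene go from 49.6% to 9.64% and 6.32% at the same lengths.

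J gene use differed between the classes. The test was the edgeR quasi-likelihood test on numbers of clonotypes summed per name, with the name as a block. In it 9 of 13 J genes (69.2%) had an edgeR adjusted p below 0.05 (Benjamini-Hochberg). By the fold change after TMM scaling, 5 were higher (38.5%) and 4 lower (30.8%) among long clonotypes. With the repertoire sets as blocks 7 of 13 passed, 3 higher and 4 lower, all among the 9. A J gene's untrimmed length contributes to the length that defined the class, so gene use is not fully independent of the rule. TRBJ2-6 had the largest rise among the J genes, with 16.9%, 14.6% and 15.6% in Amazo, Nebula and Rocket, against 3.47%, 3.12% and 3.49% of clonotypes of 36 to 51 nt. The 2 classes did not overlap in any of the 8 libraries (13.5% to 17.9% against 3.01% to 3.96%), and the fold change was 5.34 (log2 2.42, SE 0.0967, adjusted p = 2.8e-07). The share rose with length within the comparison class too. Pooled over the libraries it was 0.759% at 36 nt, 3.62% at 45 nt and 9.97% at 51 nt (9.07% to 11.1% by library). At 54 nt it was 15.1% (13.8% to 17.1%), so the fold change depends on the pooling of 36 to 51 nt.

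TRBJ2-2 was 15.6%, 14.2% and 16.02% of long clonotypes against 8.10%, 7.51% and 7.88% (log2 fold change 1.15, adjusted p = 2.8e-07). TRBJ2-4 was 12.7%, 12.5% and 14.1% against 9.24%, 8.65% and 8.63% (log2 fold change 0.75, adjusted p = 1.94e-05). On the 2 sides of the minimum these genes were closer. Pooled over the libraries, TRBJ2-2 was 13.96% at 51 nt and 15.1% at 54 nt, and TRBJ2-4 11.2% and 12.2%. These 3 genes of the TRBJ2 cluster rose among long clonotypes under every scaling of clonotype numbers tried. By counts in place of clonotypes 7 J genes passed in edgeR, 2 higher and 5 lower, so not all 3 passed as higher there. Of all productive TRBJ2-6 clonotypes 19.1% were long, compared with 8.78% for TRBJ2-2 and 6.65% for TRBJ2-4.

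The genes that fell were TRBJ1-2, TRBJ1-1, TRBJ2-7 and TRBJ1-4. TRBJ1-2 was 1.96%, 2.93% and 0.921% of long clonotypes against 7.29%, 8.44% and 7.31% (log2 fold change -1.79, edgeR adjusted p = 0.000281). TRBJ2-7, among the most used J genes of ordinary length CDR3s, was 4.18%, 5.17% and 5.39% against 11.8%, 11.8% and 11.5% (log2 fold change -1.09, edgeR adjusted p = 1.94e-05). TRBJ1-1 and TRBJ1-4 had log2 fold changes of -1.29 and -0.65. Each of the 4 had no overlap between the classes over the 8 libraries. Pooled over the libraries, TRBJ2-7 went from 17.5% at 36 nt to 6.52% at 51 nt and 4.88% at 54 nt. TRBJ1-2 went from 14.5% to 2.66% and 2.18% at the same lengths.

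TRBJ2-1 (log2 fold change 0.11) and TRBJ2-3 (0.18) also passed as higher, but both had negative values without TMM scaling, where 3 genes were higher and 5 lower. The share of TRBJ2-1 was lower among long clonotypes in all 3 names, and that of TRBJ2-3 was higher in 2 of 3. Leaving out TMM moved the median of the 13 J genes from 0.06 to -0.13. TRBJ1-3, TRBJ1-5, TRBJ1-6 and TRBJ2-5 did not pass, with log2 fold changes of 0.08, 0.06, 0.02 and -0.11. The TRBJ2 cluster as a whole was 76.3% ± 4.12 of long and 61.6% ± 3.61 of ordinary clonotypes (SD, n = 3), higher in 8 of 8 libraries.

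The untrimmed J part inside the CDR3 was 19 nt for TRBJ2-7, 20 nt for TRBJ1-1, TRBJ1-2 and TRBJ2-5, 21 nt for TRBJ2-3 and TRBJ2-4, 23 nt for TRBJ1-4 and TRBJ2-2, and 25 nt for TRBJ1-6 and TRBJ2-6. Across the 13 genes, which share libraries, this length and the log2 fold change had a Pearson correlation of 0.67 (Spearman 0.57). The order did not follow length alone. TRBJ1-6 and TRBJ2-6 both had 25 nt and log2 fold changes of 0.02 and 2.42, and TRBJ1-4 fell although it had 23 nt.

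**Figure D3:**
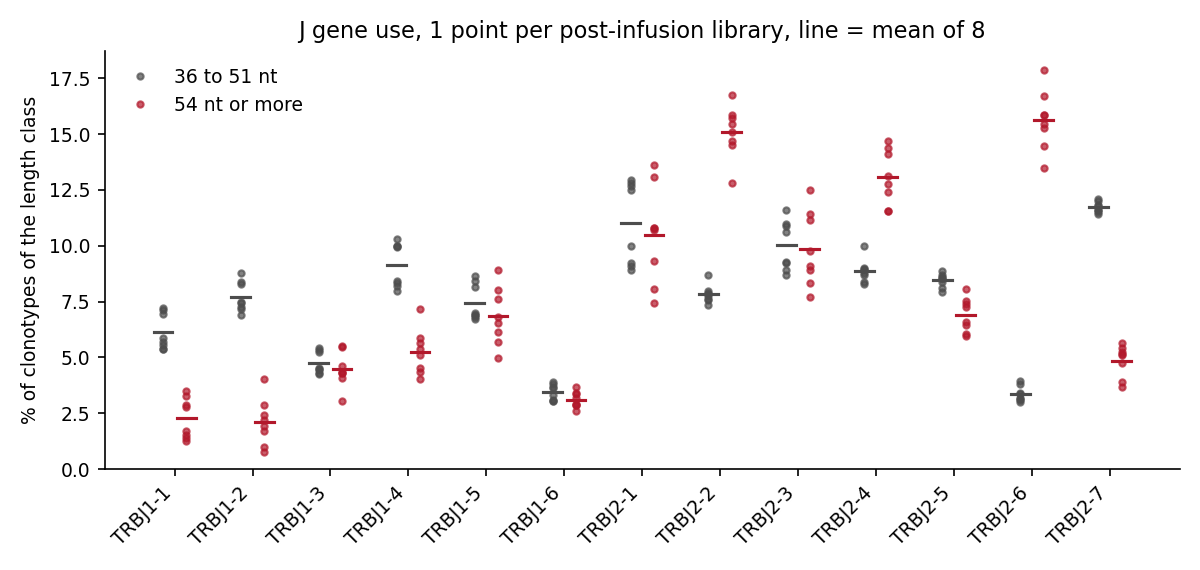
J gene use in clonotypes of 54 nt or more (red) and of 36 to 51 nt (grey), as a share of the clonotypes of the class (y axis, %), with 1 point per post-infusion library and a line at the mean of 8. TRBJ2-6 lies at 13.5% to 17.9% in the long class and 3.01% to 3.96% in the other.

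TRBD2 was found more often in long clonotypes and a missing D gene less often. TRBD2 was the first D hit of 46.0% ± 3.82 of long and 23.8% ± 1.70 of ordinary clonotypes (SD, n = 3 names), with differences of 23.1, 19.8 and 23.8 points in Amazo, Nebula and Rocket. All 8 libraries had a higher share among long clonotypes (40.4% to 50.0% against 21.8% to 25.5%). No D gene was assigned to 5.47% ± 0.389 of long and 24.2% ± 1.17 of ordinary clonotypes, and TRBD1 to 48.5% ± 3.43 and 52.0% ± 0.546. Each of these 3 differences had p = 0.25, the smallest p that the exact sign-flip permutation test allows with 3 names, and an adjusted p of 0.269 over 14 such tests. Within the comparison class, pooled over the libraries, no D gene went from 49.6% at 36 nt to 9.64% at 51 nt. TRBD2 went from 12.6% to 39.5% over the same lengths. Both shares thus depend on the length that defined the classes, and the values for no D gene are a description only.

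The TRBD2 difference was also present where a D gene was assigned. Among clonotypes with exactly 1 D hit, TRBD2 was 54.5% ± 4.39 of long and 35.8% ± 2.00 of ordinary ones. Within the TRBJ2 cluster it was 67.7% ± 2.77 against 49.6% ± 1.55, higher in 8 of 8 libraries. Within the TRBJ1 cluster it ran the other way, with 8.91% ± 1.23 against 13.1% ± 0.647, lower in 8 of 8 libraries. TRBD2 ordinarily joins TRBJ2 genes and the D alignments are short. Part of the TRBD2 hits with a TRBJ1 gene can thus be wrong assignments, which was not tested. The aligned stretch of TRBD2 was 10.0 bases in long and 7.96 in ordinary clonotypes, and that of TRBD1 8.64 and 7.27.

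Both D genes aligned to separate stretches in 209 long clonotypes. Their share was 2.24% ± 0.113 of long against 0.555% ± 0.00894 of ordinary clonotypes, with a lowest and highest library of 1.44% and 2.72% in the long class (exact sign-flip permutation test, p = 0.25, higher in 8 of 8 libraries). With a TRBJ2 gene, TRBD1 came first in 131 of 174 such long clonotypes (75.3%), the order of the genes on the chromosome, and in 365 of 677 ordinary ones (53.9%). With a TRBJ1 gene it came first in 13 of 35 long and 156 of 330 ordinary clonotypes. The D alignments are short, so part of these pairs can be matches of N bases, which was not tested.

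A smaller share of V genes than of J genes passed. Of 55 V genes with at least 10 clonotypes in at least 3 of 6 columns (3 names, 2 classes), 22 (40.0%) passed in the edgeR quasi-likelihood test, 10 higher (18.2%) and 12 lower (21.8%) among long clonotypes. TRBV29-1 differed most, with 0.404% ± 0.230 of long and 2.32% ± 0.553 of ordinary clonotypes (SD, n = 3, log2 fold change -2.50, SE 0.266, adjusted p = 2.73e-14). Of all productive TRBV29-1 clonotypes 0.770% were long, 39 in all. TRBV30 was next, with 0.296% ± 0.0294 against 0.885% ± 0.112 (log2 fold change -1.57, edgeR adjusted p = 2.86e-08). V bases are part of the length that defined the classes, so V gene use is not fully independent of the rule either. Within the comparison class, pooled over the libraries, TRBV29-1 already fell from 6.99% at 36 nt to 0.748% at 48 nt. TRBV30 fell from 1.63% to 0.536% over the same lengths. The adjusted p values of V genes thus do not separate gene use from the length rule.

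The other V genes that fell and are named here were TRBV11-3 (log2 fold change -0.87), TRBV10-1 (-0.77), TRBV19 (-0.69), TRBV5-1 (-0.68), TRBV20-1 (-0.66), TRBV25-1 (-0.65), TRBV2-2 (-0.63) and TRBV5-9 (-0.55), followed by TRBV5-6 and TRBV12-2. By DESeq2, TRBV11-3, TRBV25-1 and TRBV5-9 did not pass (adjusted p = 0.185, 0.255 and 0.159). With the repertoire sets as blocks, TRBV25-1 and TRBV5-9 did not (edgeR adjusted p = 0.0610 and 0.103). Many clonotypes assigned to some of these genes by first hit also had another V gene among their hits. This held for 91.9% in TRBV5-9, 64.8% in TRBV2-2, 51.9% in TRBV12-2 and 46.7% in TRBV5-6. With only clonotypes of 1 best V gene, 20 of 53 V genes passed in edgeR, 18 of them among the 22. TRBV5-1 was 3.65% ± 0.189 of long and 5.89% ± 0.316 of ordinary clonotypes, with no overlap over the 8 libraries.

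TRBV23-1 was the most used V gene of long clonotypes, at 11.1% ± 1.92 against 7.51% ± 1.11 (SD, n = 3, log2 fold change 0.56, SE 0.0486, edgeR adjusted p = 5.38e-19). The 3 measured TRBV4 genes were each higher in the long class, TRBV4-1 by a log2 fold change of 0.83, TRBV4-3 by 0.77 and TRBV4-2 by 0.48. Pooled over the libraries, the TRBV4 family went from 3.63% at 36 nt to 12.8% at 51 nt. It was 12.6% at 54 nt and 7.30% at 63 nt or more. The difference thus came from the shorter part of the comparison class, with no further rise beyond 51 nt. TRBV16 and TRBV12-4 had the largest fold changes, 1.21 and 0.92, but rested on 19 and 48 long clonotypes, and TRBV16 did not pass by DESeq2 (adjusted p = 0.0790). TRBV15 (0.60), TRBV3-4 (0.52), TRBV7-4 (0.50) and TRBV3-3 (0.35) completed the set that rose. TRBV23-1 and the TRBV4 genes appear in 3 of the sequences above.

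The V genes with few bases in the CDR3 were on the low side. The untrimmed V part was 13 nt for TRBV20-1, TRBV21-1, TRBV29-1 and TRBV30, whose log2 fold changes had a median of -1.12, and 16 nt for 41 genes, whose median was 0.07. Over 54 V genes with at least 20 untrimmed clonotypes the Pearson correlation of length and log2 fold change was 0.56 (Spearman 0.38). The 41 genes of 16 nt nevertheless ranged from TRBV11-3 to TRBV16. By counts in place of clonotypes no V gene passed (0 by edgeR, 12 at an unadjusted p under 0.05), and without the name as a block 3 did.

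**Figure D4:**
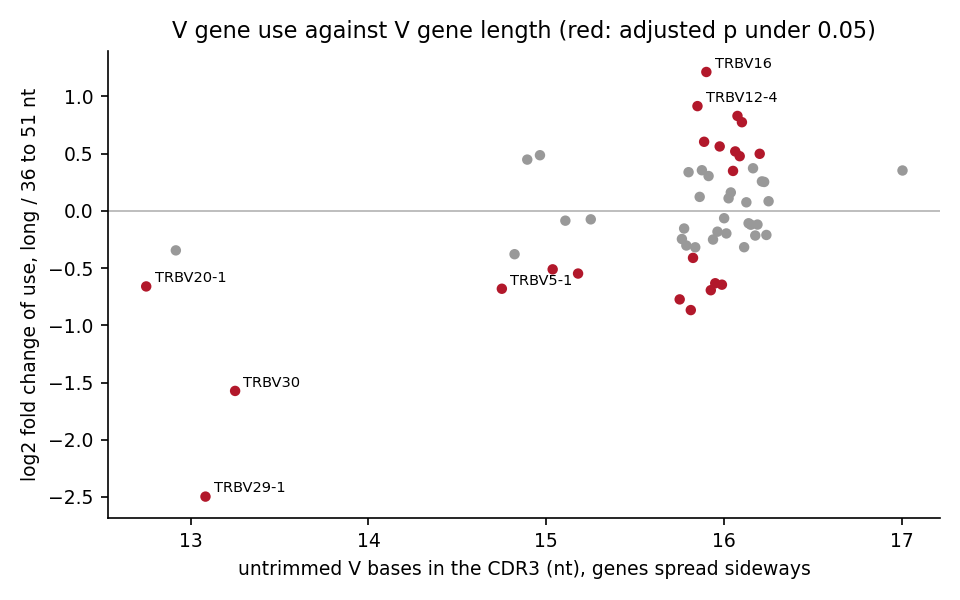
Log2 fold change of V gene use, long against 36 to 51 nt (y axis), by the untrimmed V bases in the CDR3 (x axis, nt), for 54 V genes spread sideways within each length. Red points had an edgeR adjusted p below 0.05; the 4 genes with 13 nt all lie below 0, TRBV29-1 lowest at -2.50.

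The middle of long CDR3s, taken without the first 4 and last 6 residues, differed in composition. In limma on the log2(percent + 0.01) scale, with the name as a block, 14 of 20 amino acids (70.0%) passed at an adjusted p below 0.05, 9 higher (45%) and 5 lower (25.0%). The Amazo and Rocket names shared a repertoire in part, so the 3 names are not fully separate replicates. With the repertoire sets as blocks 11 of 20 passed, 7 higher and 4 lower, all among the 14. Tryptophan, an aromatic residue, was 3.14%, 2.72% and 3.39% of residues in Amazo, Nebula and Rocket against 2.15%, 1.98% and 2.22% (log2 fold change 0.53, SE 0.0395, limma adjusted p = 0.00119). It was higher in 8 of 8 libraries, with no overlap between the classes.

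Cysteine, whose thiol can form disulfide bonds, was rare in both but had the largest fold change, 0.121% ± 0.0234 against 0.0392% ± 0.00599 (SD, n = 3, log2 fold change 1.40, limma adjusted p = 0.00199). Isoleucine (log2 fold change 0.37), phenylalanine (0.33), histidine (0.29), serine (0.23), tyrosine (0.23), lysine (0.20) and asparagine (0.20) also rose. Glutamine fell most, from 7.33% ± 0.238 to 5.63% ± 0.0458 (log2 fold change -0.38, limma adjusted p = 0.00119). Aspartate (-0.22), arginine (-0.17), glutamate (-0.15) and threonine (-0.12) fell as well.

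Glycine, which TRBD genes encode and which was the most common residue, was 24.1% ± 0.595 against 24.5% ± 0.519 and did not pass. The window is placed by residue number, so in long CDR3s V and J residues are a smaller part of it. Over the whole CDR3, where the conserved ends weigh less in a longer loop, the log2 fold changes of cysteine (-0.36), phenylalanine (-0.25), lysine (-0.17) and tyrosine (-0.48) were below 0 and those of arginine (0.14) and threonine (0.19) above it, all past limma's threshold. Read only between the last V base and the first J base, 12 amino acids passed, 9 of them among the 14. Without Amazo none of the 20 passed (0 by limma, 11 at an unadjusted p under 0.05), and with each clonotype weighted by its count 1 did.

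**Figure D5:**
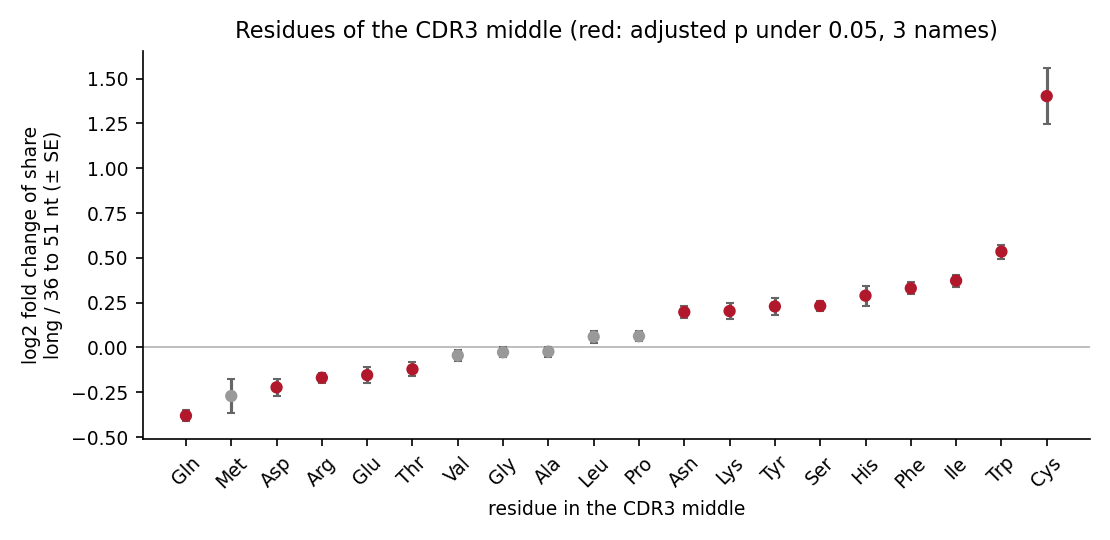
Log2 fold change of the share of each amino acid in the CDR3 middle, long against 36 to 51 nt (y axis, error bars are SE, n = 3 names). Red points passed at an adjusted p below 0.05 in limma; cysteine is highest at 1.40 and glutamine lowest at -0.38.

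The middle was less hydrophilic on the Kyte-Doolittle scale, on which higher values are more hydrophobic. The mean per residue was -0.679 ± 0.0267 in long and -0.818 ± 0.00954 in ordinary CDR3s (SD, n = 3), higher in 8 of 8 libraries by 0.0522 to 0.181 (exact sign-flip permutation test, p = 0.25). Net charge per 100 residues was -0.212 ± 0.4929 against -0.830 ± 0.307, a difference within the spread (exact sign-flip permutation test, p = 0.5, higher in 6 of 8 libraries), and read between the V and J bases alone it was lower, not higher, among long clonotypes.

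Short motifs were counted per 1000 residues of the middle. A run of 3 glycines was found 4.78 ± 0.657 against 3.81 ± 0.171 times and a pair of prolines 3.85 ± 0.297 against 2.60 ± 0.0544 times (SD, n = 3). Sites for N-linked glycosylation by sequence (asparagine, any residue but proline, then serine or threonine) were found 0.742 ± 0.163 against 0.299 ± 0.0483 times. Each of these 3 was higher in all 3 names and in 7, 7 and 8 of 8 libraries respectively (exact sign-flip permutation test, p = 0.25, adjusted p = 0.269). A longer middle has more positions per residue at which a motif can start. Per 1000 possible start positions, a unit chosen after seeing the data, the 3 glycines were lower among long clonotypes, 6.23 ± 0.864 against 6.94 ± 0.298, in 6 of 8 libraries (exact sign-flip permutation test, p = 0.5). In that unit the proline pair, 4.36 against 3.36, and the glycosylation site, 0.967 against 0.544, were higher in all 3 names (exact sign-flip permutation test, p = 0.25 for each). With the repertoire sets in place of the names, the difference for 3 glycines per 1000 residues was 0.5255 (p = 0.75 in the same exact test). Counted per clonotype, 0.595% of long CDR3s held such a glycosylation site in the middle, against 0.133%.

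Long clonotypes were smaller than others. Their share of counts was below their share of clonotypes in 7 of 8 libraries, by 1.63 ± 1.13 points (SD, n = 3 names, exact sign-flip permutation test, p = 0.25). The exception was Nebula day -4, the shallowest library, at 0.0417 points above. Clonotypes with 10 counts or more were 25.9% ± 4.35 of long and 32.7% ± 4.90 of ordinary clonotypes, lower among long ones in 7 of 8 libraries (exact sign-flip permutation test, p = 0.25). Single-count clonotypes were 20.2% ± 4.46 against 14.3% ± 5.73, higher in 8 of 8 libraries.

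The share of long CDR3s was lower among larger clonotypes in 7 of 8 libraries. Pooled over the libraries it was 6.41% of 27222 productive clonotypes with 1 count, 4.59% of those with 2 to 9 counts and 3.83% of those with 10 counts or more. In Nebula day -4, which held 7269 of the single-count clonotypes, the shares were 4.10%, 4.02% and 4.35%. Of the 264 productive clonotypes that held 0.1% or more of a library, 6 were long, and of the 110 that held 0.5% or more, 1 was. These counts repeat clonotypes found in several libraries.

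The share of single-count clonotypes did not change gradually with length. It was 13.5%, 13.3% and 13.3% at 45, 48 and 51 nt, then 19.1% and 19.2% at 54 and 57 nt, 157 of 872 at 60 nt, and 11.4% of 220 clonotypes at 63 nt. The step from 51 to 54 nt was present in 7 of 8 libraries, at 4.47 to 8.30 points, and absent in Nebula day -4 (42.6% and 42.1%). Clonotypes that differed by 1 base from a clonotype of the same length with at least 10 times the count went from 3.17% at 51 nt to 5.29% at 54 nt. Their part in the step was not tested. The step bears on the single-count and abundance values of the long class given above, and its source was not tested.

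The most abundant members were few, and each kept to 1 repertoire set but for single counts. TRBV12-2 TRBD1 TRBJ1-5 held 1714 counts (0.402%) in Nebula day -5, 223 (0.522%) in Nebula day -4 and 858 (0.332%) in Nebula day 0, where it ranked 3, 4 and 3 among all clonotypes. It also had 1 count in Amazo day +3. TRBV4-3 TRBD2 TRBJ2-1 held 939 counts (0.169%) and 391 counts (0.151%) in Rocket day -5 and day -4, 351 (0.101%) and 292 (0.0962%) in Amazo day -5 and day +3, 0 in Amazo day -4 and 1 in Nebula day -5.

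TRBV12-2 TRBD1 TRBJ2-5 had the same distribution at lower counts, 464 and 226 in Rocket and 189 and 107 in Amazo day -5 and day +3. TRBV5-1 TRBD2 TRBJ2-7 had 310, 39 and 87 counts in Nebula day -5, day -4 and day 0. The 2 largest members of Amazo day -4, TRBV3-4 TRBD2 TRBJ2-5 (141 counts) and TRBV4-2 TRBD2 TRBJ2-4 (121), were at 0 counts in each of the other 7 libraries. None of the named members had a count at baseline.

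Changes from day -5 to day -4 were tested for productive clonotypes of 0.1% or more in either library, by Fisher's exact test with Benjamini-Hochberg adjustment and a 2-fold minimum. A single library per day means that the test compares libraries, not days. In Amazo all 75 clonotypes tested were called (100%), among them the 1 long clonotype tested, TRBV4-3 TRBD2 TRBJ2-1, which had 351 counts at day -5 and 0 at day -4. The 2 Amazo libraries held different repertoires, so clonotypes abundant in either were bound to be called, and whether a label was exchanged was not tested. In Nebula 2 of 23 were called (8.70%) and in Rocket 1 of 49 (2.04%), in neither case a long clonotype. TRBV12-2 TRBD1 TRBJ1-5 went up 1.30-fold in Nebula (Fisher's exact test, adjusted p = 0.000639), which is under the 2-fold minimum, and TRBV4-3 TRBD2 TRBJ2-1 had a ratio of 0.893 in Rocket (Fisher's exact test, adjusted p = 0.0757).

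Few clonotypes of either class recurred in another library. Of the 8760 distinct long sequences 8418 (96.1%) were in 1 library, 342 were in 2 or more and the most widespread were in 5. This count was not made for ordinary sequences, whose recurrence per library is given next beside that of long ones. A library's long clonotypes recurred in another library of the same set in 10.7% ± 1.798 of cases and its ordinary ones in 11.9% ± 2.16 (SD, n = 3 names, 7 libraries, since Amazo day -4 had no other library in its set). By names, 7.17% ± 2.16 against 7.73% ± 1.85 recurred under the same name and 5.70% ± 5.36 against 6.84% ± 5.81 under another name, the latter lower among long clonotypes in 8 of 8 libraries (exact sign-flip permutation test, p = 0.25 for each, adjusted p = 0.269). In another repertoire set 0.511% of long and 1.04% of ordinary clonotypes recurred.

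The direction under the same name differed with clonotype size. Among single-count clonotypes 1.71% of long and 2.05% of ordinary ones recurred under the same name, and among those of 2 to 9 counts 5.83% and 6.14%. Among clonotypes of 10 counts or more it was 36.2% ± 12.4 and 30.3% ± 12.2, higher among long ones in 7 of 8 libraries. Those values rest on few long clonotypes in places, 6 of 6 in Nebula day -4 and 27 of 38 in Rocket day -4. Under another name, clonotypes of 10 counts or more recurred in 25.1% of long and 21.7% of ordinary cases, higher among long ones in 5 of 8 libraries. These values include the Rocket and Amazo libraries that shared a repertoire. In another repertoire set the values were 4.05% and 2.82%, higher among long clonotypes in 3 and lower in 5 of 8 libraries.

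Between repertoire sets, sharing was rare. Only 17 of 8760 distinct long sequences (0.194%) and 798 of 172047 ordinary ones (0.464%) were in 2 or more of the 3 sets, and no long sequence was in all 3. Under the Nebula and Rocket names 4 long sequences were in common, 0.127% of the 3149 in Nebula and 0.191% of the 2095 in Rocket, against 0.370% and 0.544% for ordinary ones. The lowest count was 1 in 12 of the 17, so most of these matches rest on a single count in 1 of the libraries. TRBV3-3 TRBD1 TRBJ2-6 had 27 and 10 counts in Rocket, 10 in Amazo day -5 and 1 in Nebula day -5, and TRBV23-1 TRBD2 TRBJ2-2 had 21 in Nebula day -5 and 1 in Rocket day -5.

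The longest members were rare and thinly counted. The 21 clonotypes of 75 nt or more reached at most 16 counts, and 3 of them had 10 or more. TRBV10-3 TRBD1 TRBJ2-4 of 84 nt had 16 counts in Rocket day -5, TRBV14 TRBD1 TRBJ1-2 of 75 nt had 12 in Amazo day -4, and TRBV24-1 TRBD2 TRBJ2-5 of 165 nt had 11 in Nebula day 0. Each was in 1 library only.

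Part of the longest members held a second J-like stretch. In TRBV14 TRBD1 TRBJ1-2 the last 12 bases of the CDR3 also stood earlier in the sequence, as can be read in its capitals above. Such a repeat was found in 2 of 21 clonotypes of 75 nt or more, 4 of 376 of 63 to 72 nt, 2 of 8863 of 54 to 60 nt and 0 of 183480 of 36 to 51 nt. TRBV24-1 TRBD2 TRBJ2-5 instead held, inside its capitals, the phenylalanine-glycine-any-glycine motif that follows the CDR3 in J genes. That motif was found within 3 of the 21 longest (14.3%), 4 of 376 (1.06%), 85 of 8863 (0.959%) and 837 of 183480 (0.456%). These searches were chosen after the sequences were seen.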

How the data were processed

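Template-switch cDNA of poly(A) RNA was amplified with a primer in the TRB constant region and sequenced on a MiSeq (paired ends of 300 bp). The authors ran Trimmomatic and then MiXCR with default settings against rhesus TRB segments; versions are not given in the sources used here. The deposited count per clone is a whole number that was not normalized, the deposited fraction equals that count divided by the library total in all 12 tables, and the deposited quality score is the lowest base quality of the CDR3. The study's methods name barcode collapsing and a clone threshold of 0.5%, whereas the post-infusion tables held clones far below it and no barcode column. PCR copies are not independent molecules.

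Genes were taken as the first hit, and segment ends from the deposited alignment points. Untrimmed lengths are the most common number of bases where no base was deleted. The pairing comes from the names, taken as the animals named in the labels, and the name was the block of every comparison of classes or days. For Amazo the repertoires do not bear it out, since the day -4 library shared almost no clonotypes with the other Amazo libraries. Single values used exact sign-flip permutation tests over 3 names, and baseline an exact permutation test. Gene use was tested with edgeR 4.0.16 (TMM, genes with at least 10 clonotypes in at least 3 columns), composition with limma 3.58.1, and clonotypes with Fisher's exact test in scipy 1.17.1, all with Benjamini-Hochberg adjustment. DESeq2 1.42.0 was an alternative. R 4.3.3, Python 3.11.15, pandas 2.3.3, numpy 2.4.6 and matplotlib 3.10.9 were used. Tested on simulated data, the V gene test on 55 genes recovered 84.5% of 2-fold and 57.7% of 1.5-fold changes, the J gene test on 13 genes 100% of both, and limma on 20 amino acids 100% of 1.5-fold changes. False calls were 9 of 872 and 2 of 879 for V genes, 1 of 200 and 8 of 200 for J genes, and 2 of 320 for amino acids. Apart from cysteine, the amino acids that passed changed by less than 1.5-fold, a size that was not simulated.

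The members, lists and tests were chosen with earlier results of these data known. V genes named were those that passed with the same direction in all 3 names, up to the 10 largest rises and 10 largest falls; TRBV5-6 and TRBV12-2, also named, fell outside that limit. All J genes, both D genes and every amino acid that passed were named. Named clonotypes were the most abundant, longest, shared and changed members. Chromosome positions of the segments were not used here. Values by length, repeats within CDR3s the removal of 1-base neighbours and motifs per start position were added after seeing the data.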

Additional observations from a re-analysis of the deposited data

Results flagged for a closer look

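Single-count clonotypes made up 42.8% of the long clonotypes of Nebula day -4, far from the next highest of the 8 post-infusion libraries (19.9%), with a gap of 0.794 of the whole range. The ordinary clonotypes of that library had 42.3%. This library had the fewest counts, and the part of depth in the value was not tested. It was the 1 value of 38 checked that stood apart in this way, which chance gives in about 1 in 20.

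The change of the share of long clonotypes from day -5 to day -4 had opposite signs between the names, 0.339 points in Amazo against -0.725 in Nebula and -0.809 in Rocket. The share of counts in long clonotypes changed by 0.727 points in Amazo and 0.319 in Rocket against -0.124 in Nebula. With 1 library per name and day these differences were not tested, and the Amazo day -4 library shared few clonotypes with Amazo day -5.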

How the results depend on the processing

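With 3 names the exact sign-flip permutation p of a single value cannot fall below 0.25, or 0.5 with 1 name left out, so no such value could gain or lose a call. With the 8 libraries as units in place of 3 names, p could fall below 0.05 (exact sign-flip permutation tests, n = 8, libraries of 1 animal not independent), and the differences were -3.15 points for TRBD1, 22.0 for TRBD2, -1.52 for share of counts minus share of clonotypes, 1.68 for both D genes, -6.67 for 10 counts or more, -1.09 for sharing with another name and 0.137 for hydropathy, and per 1000 residues 0.834 for cysteine, 0.889 for 3 glycines, 0.462 for glycosylation sites and 1.22 for 2 prolines. Net charge read between the V and J bases was -0.332, opposite in sign, and 3 glycines per 1000 possible start positions -0.715 (exact sign-flip permutation p = 0.5). Sharing under the same name went from -0.557 points to -0.0600 with at least 2 counts, -1.06 by repertoire sets and -1.38 at 57 nt or more, and sharing with another name from -1.13 to -0.625, -0.666 and -1.86. At 57 nt or more, share of counts minus share of clonotypes was -0.680, the day difference -0.117 (counts 0.171), net charge 1.00, and cysteine, 3 glycines, glycosylation sites and 2 prolines 1.38, 0.603, 0.911 and 2.25. Net charge by repertoire sets was 0.378. Between the V and J bases hydropathy was 0.246 and cysteine 0.488. Long clonotypes called changed were 2 in Amazo at a minimum of 0.05% and 0 at 0.5%, where no long clonotype was tested, and 1 in Nebula with no minimum fold.

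The pairing rests on the names in the labels, and for Amazo the repertoires do not bear it out. Without the name as a block, the change from day -5 to day -4 was -0.398 points for the share of clonotypes (exact permutation p = 0.3) and 0.308 for that of counts (p = 0.8), and 3 V genes, 7 J genes and 12 amino acids were called, so that the V genes changed by over 1.5 times. Other V gene settings called 17 to 26, apart from 0 by clone counts (edgeR, 12 at an unadjusted p under 0.05). Amino acids weighted by count gave 1 call (limma, 7 at an unadjusted p under 0.05). The causes were not tested.

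Leaving out 1 name at a time gave 12 to 23 called V genes (12 without Amazo, 13 without Rocket), 6 to 8 J genes and 0 to 11 amino acids (0 without Amazo, 6 without Rocket). The day -5 to day -4 difference was -0.767 to -0.193 points, that of counts 0.0977 to 0.523, and share of counts minus share of clonotypes -2.27 to -1.21. Without Amazo net charge was 0.951 and sharing under the same name -0.301, and without Rocket TRBD1 was -2.25.

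Of 684 values of single genes or amino acids 28 changed sign. Without TMM scaling these were TRBJ1-3 (-0.11), TRBJ1-5 (-0.13), TRBJ1-6 (-0.17), TRBJ2-1 (-0.0766) and TRBJ2-3 (-0.00603). By clone counts they were TRBV7-4 (-0.22), TRBJ2-3 (-0.62) and TRBJ2-5 (0.60). With 8 library blocks they were TRBJ1-3 (-0.0590), TRBJ1-5 (-0.0585), TRBJ1-6 (-0.11) and TRBJ2-1 (-0.0209), and with repertoire sets as blocks TRBJ1-3 (-0.0239), TRBJ1-5 (-0.0105) and TRBJ1-6 (-0.0463). TRBJ1-6 was -0.0812 against 42 to 51 nt and -0.23 at 57 nt or more. Leaving out 1 name, it was -0.0440 (without Nebula) to 0.0448, and TRBJ1-5 was -0.00534 (without Nebula) to 0.134. Over the whole CDR3 they were cysteine (-0.36), phenylalanine (-0.25), lysine (-0.17), serine (-0.00299), tyrosine (-0.48), arginine (0.14) and threonine (0.19), and weighted by count isoleucine (-0.56) and glutamate (0.0944).

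Removing 1-base neighbours of larger clonotypes was chosen after seeing the data and gave 22 V genes, 8 J genes and 15 amino acids. Depth limits the baseline most, where 1 clonotype is over 2% of a library.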
